A study of Mus musculus with 12 samples.

Results

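The 10 genes described here encode enzymes of leucine, isoleucine and valine breakdown, with the kinase and phosphatase that regulate it and enzymes of the later leucine steps, and they were taken by symbol from the deposited gene table, Bcat2, Bckdha, Bckdhb, Dbt, Dld, Bckdk, Ppm1k, Ivd, Mccc1 and Mccc2. All 10 were found among the 39331 genes of the table, and all 10 were among the 15606 genes that passed the filter on low counts. Hearts came from C57BL/6N mice aged 9 months, with no treatment. The WT group held 6 libraries from wild-type hearts, and the KI group held 6 libraries from hearts with the Lemd2 p.L13R knock-in. This is an exchange of leucine for arginine at residue 13 of an inner nuclear membrane protein. The labels do not give the zygosity or the sex, and the titles of KI 1 and KI 2 join a pair of numbers, without saying whether material was pooled. The titles do not say that every library is a separate animal, so the p values measure the spread between these libraries, and neighbouring serial numbers in the titles fell within 1 genotype, so that series and genotype cannot be told apart. Lemd2 itself had a log2 fold change of -0.36 (SE 0.09, adjusted p = 0.0215), and a gene count does not show the substitution.

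Branched-chain amino acids first lose their amino group to a mitochondrial aminotransferase, encoded by Bcat2. The keto acids are then decarboxylated by the branched-chain keto acid dehydrogenase complex, which is the committed and irreversible step. The complex is switched off when the kinase encoded by Bckdk phosphorylates its decarboxylase, and switched on when the phosphatase encoded by Ppm1k removes the phosphate. After this step the leucine carbon passes through isovaleryl-CoA dehydrogenase (Ivd) and the biotin-dependent methylcrotonoyl-CoA carboxylase (Mccc1 and Mccc2). Lower expression of this pathway and build-up of the keto acids are known from failing hearts.

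Most members were lower in KI, by modest amounts. In the fit scaled by TMM, 7 of the 10 passed an adjusted p of 0.05 and were lower, namely Ppm1k, Bckdhb, Dbt, Mccc1, Mccc2, Ivd and Dld, against 4.34% of all genes tested. No member was higher (edgeR 0 at the threshold and 0 at an unadjusted p under 0.05, DESeq2 0, voom 0), where 4.46% of all genes were at the adjusted threshold. For scale, 4020 of the 15606 genes tested had an unadjusted p under 0.05 in this fit, in either direction. The log2 fold changes ran from -0.49 (Ppm1k) to -0.11 (Bckdk) with a median of -0.23, beside a median of 0.01 over all genes tested. In Bckdhb, Dbt and Mccc2 every KI library lay below every WT library with TMM scaling, 3 of 10 members against 2.21% of all genes.

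The number of calls moved with the scaling of the libraries. It was also 7 with RLE size factors and with TMM after genes of the mitochondrial chromosome were left out. When libraries were scaled by their totals, the median of all genes moved up by 0.15 on the log2 scale. Then 1 member (Ppm1k) passed, against 1.22% of all genes called lower at the adjusted threshold. At an unadjusted p under 0.05, 3 members were lower, and no share of all genes at that p is given for this fit. Under library totals the median of the members was -0.08, 9 of 10 had a negative fold change, and Bckdk turned to 0.04. The groups then overlapped in Bckdhb and Mccc2 and stayed apart in Dbt. For Mccc2, KI 4 (1776.2 of 34876036 counts) lay above WT 5 (1869.5 of 39349752). Genes of the mitochondrial chromosome took 34.0% to 40.4% of the counts in WT and 30.9% to 33.9% in KI. With totals that left these genes out, a scaling chosen after seeing the data, 6 members were lower (Mccc1 was at an adjusted p of 0.0600), against 2.88% of all genes, and all 10 fold changes were negative. Calls also depended on single libraries. Without WT 2, WT 6 or KI 3, 2 members were lower, where the share of all genes lower was 2.28%, 2.34% and 2.18%. Without WT 3, 4 members were lower (3.37% of all genes), and without WT 1 or WT 4, 8 were (3.99% and 5.19%). Without KI 3, 4 and 5, whose titles share an age tag, no member passed in edgeR, where 0.205% of all genes were lower at the adjusted threshold. In that fit the median of the members was -0.23. At an unadjusted p under 0.05, 7 members were lower, and no share of all genes at that p is given. With only KI 3, 4 and 5 against WT, Ppm1k, Dbt and Dld passed, where 7.55% of all genes were lower. These libraries also had the lowest totals, at 27867517 (KI 3), 34876036 (KI 4) and 31759538 counts (KI 5). The lowest total among the other libraries was 38266466 counts, in WT 2. Bracketed labels in the titles of KI 2 and KI 6 end in old and new, without explanation, and no WT label has such an ending. The part of depth or of these tags in the calls was not tested. In bulk tissue, fewer cells of a type and less RNA per cell cannot be told apart.

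**Figure D1:**
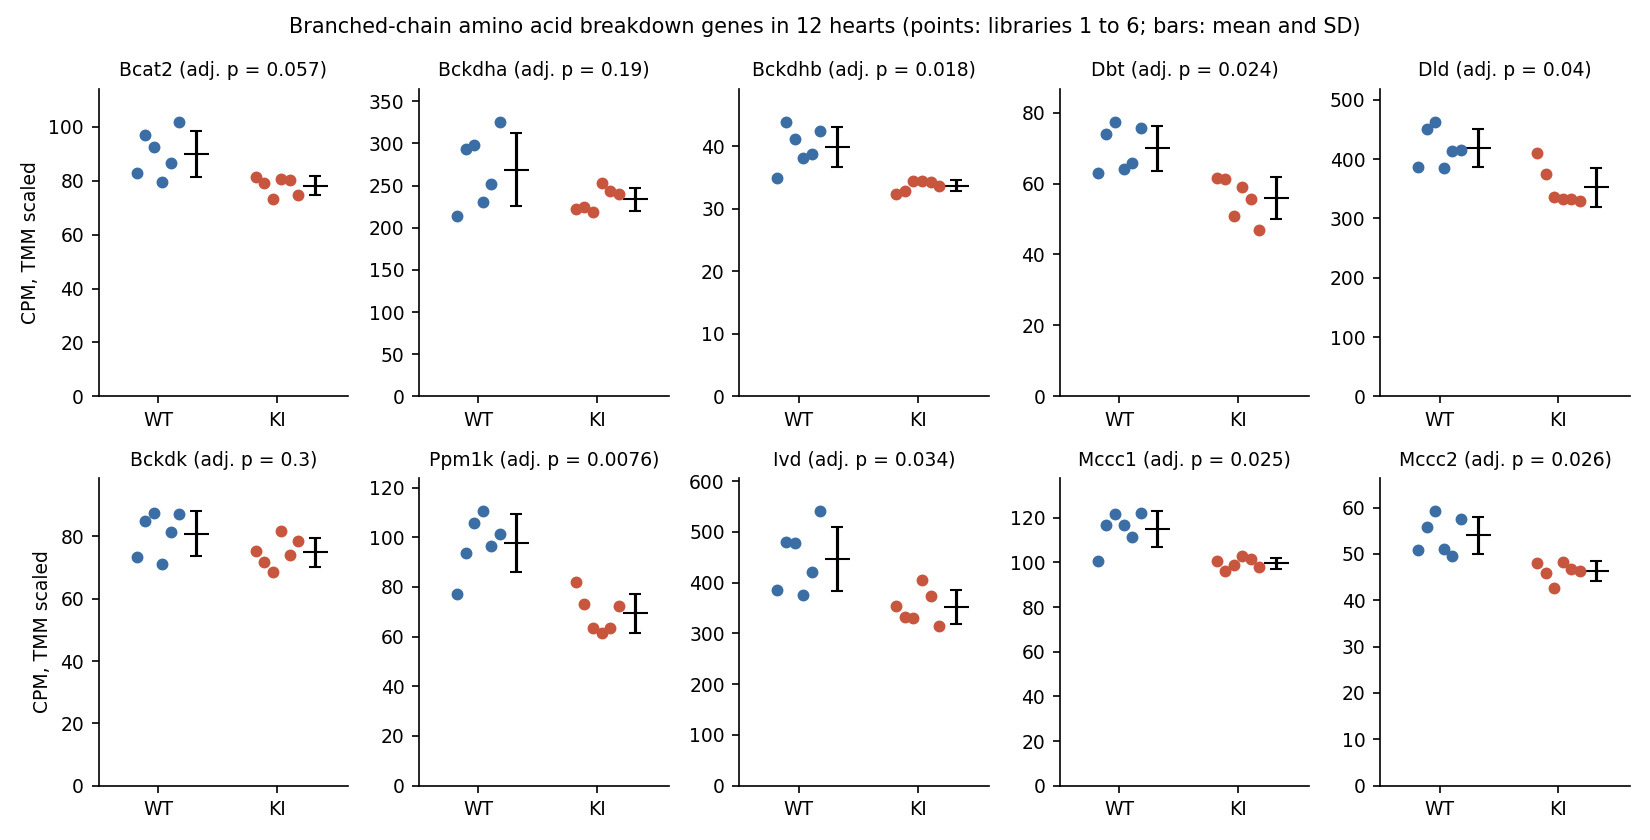
Abundance of the 10 members in CPM (counts per 1000000 counts, scaled by TMM) in each WT (blue) and KI (red) library, with the group mean and SD in black and the y axes starting at 0. The KI points lie wholly below the WT points in Bckdhb, Dbt and Mccc2, and Ppm1k shows the largest relative difference of the 10.

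**Figure D2:**
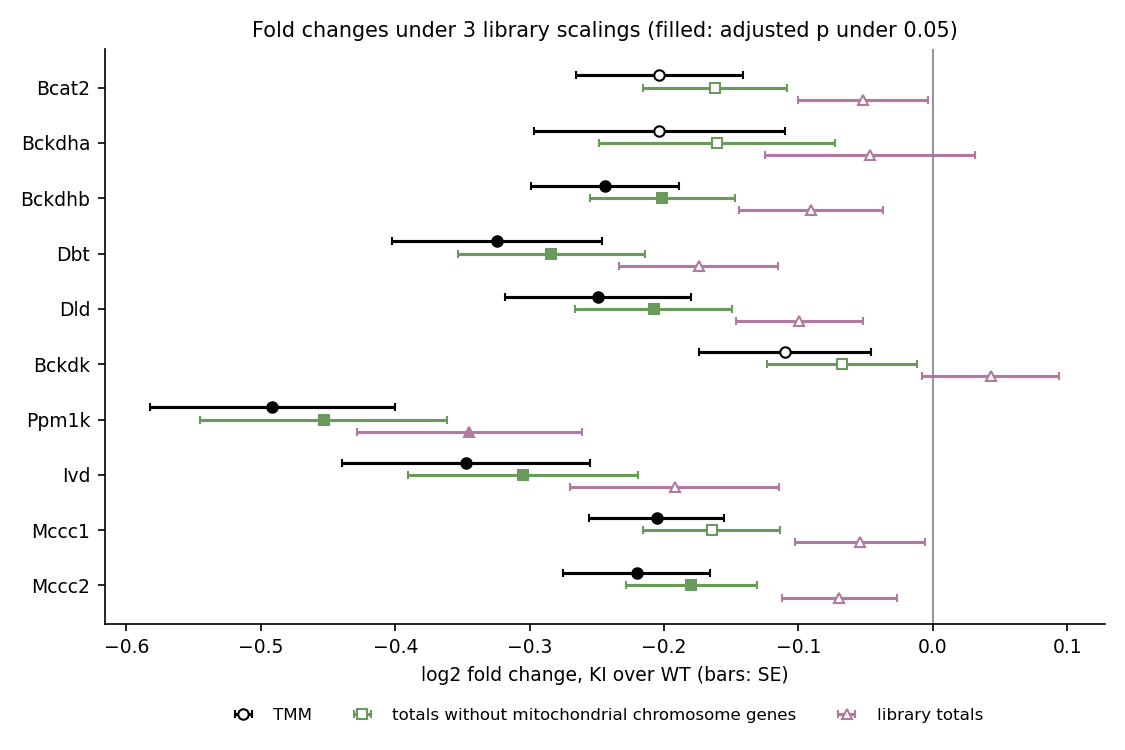
Log2 fold changes of KI over WT with SE under 3 scalings of the libraries, filled where the adjusted p is under 0.05. All values shift to the right under library totals, where Ppm1k at -0.34 is the 1 filled symbol.

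The phosphatase gene Ppm1k carried the largest fall. It lies on chromosome 6 of GRCm38.p6 (57506502 to 57535552, minus strand). Its level was 77.1 to 111 CPM in WT (median 99.1) and 61.4 to 82.0 CPM in KI (median 68.1). WT 1, at 77.1, was the single WT library inside the KI range, and KI 3, 4 and 5 were the lowest. The mean fell from 97.5 ± 11.7 to 69.4 ± 8.00 CPM (SD, n = 6 each), a log2 fold change of -0.49 (SE 0.09, edgeR adjusted p = 0.00759), in 6 of 6 KI libraries. Ppm1k kept its call in all 12 fits that left out 1 library, with adjusted p from 0.00343 to 0.0230. The change was larger with only KI 3, 4 and 5 (-0.65, adjusted p = 0.00302) than without them (-0.36, adjusted p = 0.103), and the difference between these sets was not tested.

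Its opposing kinase gene Bckdk (chromosome 7, 127904073 to 127909664, plus strand) did not pass. Bckdk was at 71.0 to 87.6 CPM in WT (median 83.2) and 68.5 to 81.6 CPM in KI (median 74.7). The groups overlapped over most of their range. The log2 fold change was -0.11 (SE 0.06, edgeR adjusted p = 0.300, n = 6 each), with 5 of 6 KI libraries below the WT mean. A p above the threshold does not show that the kinase transcript was unaltered.

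Within a library, the ratio of Bckdk to Ppm1k counts was 0.951, 0.904, 0.829, 0.642, 0.844 and 0.859 in WT 1 to 6. In KI 1 to 6 it was 0.920, 0.980, 1.08, 1.33, 1.16 and 1.08. The means were 0.838 ± 0.106 in WT and 1.09 ± 0.144 in KI (SD, n = 6 each). KI 1 overlapped the WT range, and the other KI libraries lay above it. This ratio does not depend on the scaling of a library, its size depends on the lengths of both genes, and it is given as a description without a test.

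**Figure D3:**
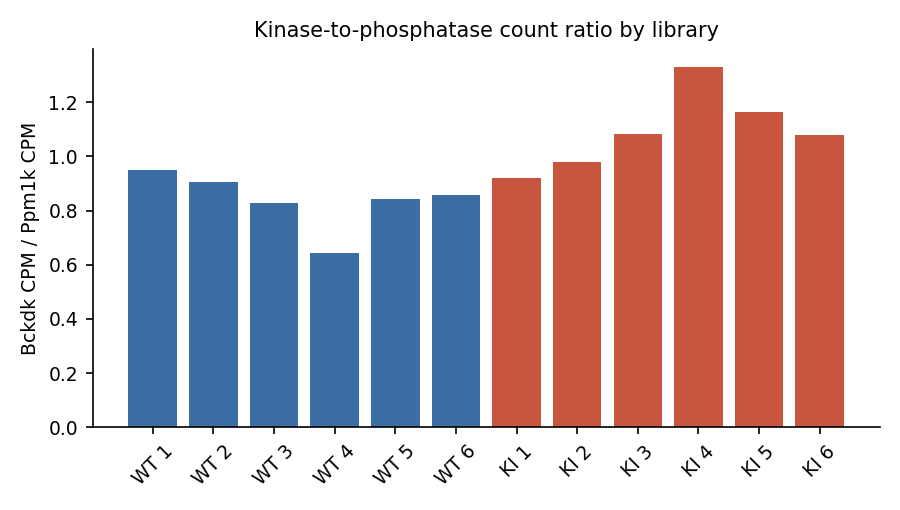
Ratio of Bckdk CPM to Ppm1k CPM in each library, WT in blue and KI in red. The bars of KI 2 to 6 are above all WT bars, KI 1 at 0.920 is not, and KI 4 is the highest at 1.33.

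The promoters of this kinase and phosphatase pair are shown because the pair had the largest and the smallest change of the members. That of Bckdhb, a gene of the enzyme they act on, is shown beside them, and this reason does not cover it. Each runs from 250 bases before to 50 bases after a gene start in RefSeq (GRCm38.p6), on the gene's own strand, at chr6:57535438-57535737 (minus), chr9:83924887-83925186 (plus) and chr7:127903823-127904122 (plus). Capitals mark AGGTCA, the half-site of nuclear receptors, and CCAAT, on either strand.
Ppm1k: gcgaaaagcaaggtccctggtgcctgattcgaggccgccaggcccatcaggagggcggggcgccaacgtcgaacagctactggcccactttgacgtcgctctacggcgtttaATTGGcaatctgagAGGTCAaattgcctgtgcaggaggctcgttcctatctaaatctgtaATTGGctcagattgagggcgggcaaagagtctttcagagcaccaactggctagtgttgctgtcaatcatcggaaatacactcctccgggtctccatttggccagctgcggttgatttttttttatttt
Bckdhb: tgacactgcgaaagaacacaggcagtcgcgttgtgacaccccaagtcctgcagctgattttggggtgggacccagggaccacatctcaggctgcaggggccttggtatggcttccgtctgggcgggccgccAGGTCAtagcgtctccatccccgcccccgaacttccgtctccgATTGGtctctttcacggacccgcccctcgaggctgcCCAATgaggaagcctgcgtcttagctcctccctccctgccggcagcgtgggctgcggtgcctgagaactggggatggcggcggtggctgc
Bckdk: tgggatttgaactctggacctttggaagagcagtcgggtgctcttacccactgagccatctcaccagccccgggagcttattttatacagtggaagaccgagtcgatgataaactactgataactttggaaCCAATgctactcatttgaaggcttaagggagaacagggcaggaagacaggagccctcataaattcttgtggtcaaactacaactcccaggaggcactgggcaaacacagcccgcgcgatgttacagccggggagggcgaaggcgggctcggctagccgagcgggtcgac

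The AGGTCA half-site began 124 bases before the start in Ppm1k and 119 bases before it in Bckdhb, and it was not in the Bckdk window. In Ppm1k and Bckdhb the start used for the window lies inside the gene span given in this report. Distances from the edge of that span are therefore smaller. Of the 11 windows that the promoter table holds for 9 members, 2 had AGGTCA, those of Ppm1k and Bckdhb, beside 16.3% of all 32851 windows of the same length. Both windows with AGGTCA are thus among those shown. The windows of Dld, Ivd, Mccc1 and Mccc2, genes also called lower in KI, did not have it, and Dbt, also called lower, had no window. The longer form AAGGTCA, known for the estrogen-related receptors, was in 0 of the 11 windows and in 4.72% of all windows. CCAAT was in 8 of the 11 windows and in 37.4% of all windows, and CACCC, a box bound by Krüppel-like factors, in 6 of the 11 and in 57.5% of all windows. Both strands were searched, each AAGGTCA also counts as an AGGTCA, and a match is a description of the sequence, not a binding site.

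The branched-chain keto acid dehydrogenase complex has a decarboxylase of alpha (Bckdha) and beta (Bckdhb) subunits, a transacylase core (Dbt) and a dihydrolipoamide dehydrogenase (Dld). Bckdhb (chromosome 9, 83925111 to 84124240, plus strand) was at 34.9 to 43.9 CPM in WT (median 39.9) and 32.4 to 34.4 CPM in KI (median 34.0). With TMM scaling the groups did not overlap, and the KI libraries were tightly placed, with a coefficient of variation of 2.56% against 8.17% in WT. Divided by library totals the groups overlapped, as KI 3 (1062.08 of 27867517 counts) lay above WT 1 (1361.07 of 39134174). The small KI coefficient under TMM was not particular to Bckdhb, as Mccc1 had 2.45% in KI against 6.93% in WT. All members except Dbt and Dld had a smaller coefficient in KI than in WT under TMM. Coefficients were not computed under library totals. The mean of Bckdhb fell from 39.9 ± 3.26 to 33.7 ± 0.861 CPM (SD, n = 6 each), a log2 fold change of -0.24 (SE 0.05, edgeR adjusted p = 0.0180). Bckdhb passed in all 12 fits without 1 library, with a highest adjusted p of 0.0449 without WT 6.

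Dbt (chromosome 3, 116513070 to 116549981, plus strand) was at 63.1 to 77.4 CPM in WT (median 69.9) and 46.9 to 61.6 CPM in KI (median 57.2). KI 6 and KI 3 were the lowest, and the groups did not overlap. The log2 fold change was -0.32 (SE 0.08, edgeR adjusted p = 0.0236, n = 6 each), from 70.0 ± 6.37 to 55.9 ± 5.94 CPM (SD). The call was lost without WT 2 (adjusted p = 0.0569), WT 6 (0.0589) or KI 3 (0.0563).

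Dld (chromosome 12, 31331562 to 31351471, minus strand), which also serves the pyruvate and oxoglutarate dehydrogenase complexes and the glycine cleavage system, was at 384 to 463 CPM in WT and 329 to 410 CPM in KI. KI 1, at 410 CPM, was the 1 KI library inside the WT range, KI 2 was at 375 CPM, and the other KI libraries lay between 329 and 336 CPM. The log2 fold change was -0.25 (SE 0.07, edgeR adjusted p = 0.0397, n = 6 each). Dld kept its call in 4 of the 12 fits without 1 library, those without WT 1, WT 4, KI 1 or KI 2, and reached an adjusted p of 0.101 without WT 2. It was at -0.34 (adjusted p = 0.0158) with only KI 3, 4 and 5 and at -0.18 (adjusted p = 0.324) without them.

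The alpha subunit gene Bckdha (chromosome 7, 25629852 to 25658782, minus strand), whose product carries the phosphate, was at 214 to 325 CPM in WT (median 273) and 218 to 253 CPM in KI (median 233). The KI range lay inside the WT range, where WT 6 was the highest and WT 1 the lowest. The log2 fold change was -0.20 (SE 0.09, edgeR adjusted p = 0.188, n = 6 each), and Bckdha passed in none of the alternatives that were run, its lowest adjusted p being 0.0711 without WT 1. The ratio of Bckdha to Bckdhb counts was 6.05 to 7.68 in WT and 6.34 to 7.36 in KI.

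Upstream of the complex, the aminotransferase gene Bcat2 (chromosome 7, 45568967 to 45589710, plus strand) was at 79.5 to 102 CPM in WT (median 89.6) and 73.1 to 81.3 CPM in KI (median 79.7). WT 4 was the WT library inside the KI range. The log2 fold change of -0.20 (SE 0.06, edgeR adjusted p = 0.0571, n = 6 each) was just outside the threshold, with 6 of 6 KI libraries below the WT mean. Bcat2 passed by DESeq2 (adjusted p = 0.0244) and voom (0.0214) and without WT 1 (0.0468) or WT 4 (0.0270), and had an adjusted p of 0.447 under library totals.

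In the leucine arm after the complex, Ivd (chromosome 2, 118861959 to 118882909, plus strand) was at 376 to 541 CPM in WT (median 449.8) and 314 to 404 CPM in KI (median 343). WT 1 and WT 4 lay inside the KI range, and WT 6 was the highest. The mean fell from 447 ± 63.5 to 351 ± 33.2 CPM (SD, n = 6 each), a log2 fold change of -0.35 (SE 0.09, edgeR adjusted p = 0.0337). Ivd passed in 6 of the 12 fits without 1 library, and in the others its adjusted p was 0.0736, 0.0654 and 0.0724 with WT 2, WT 3 and WT 6 left out in turn. It was 0.0579, 0.0736 and 0.0655 when KI 2, KI 3 or KI 6 was dropped.

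Both carboxylase genes were lower in KI. Mccc1 (chromosome 3, 35956292 to 36000694, minus strand), which encodes the biotin-carrying alpha subunit, was at 101 to 122 CPM in WT (median 117) and 96.1 to 103 CPM in KI (median 99.8), with WT 1 alone among the KI values. Its log2 fold change was -0.21 (SE 0.05, edgeR adjusted p = 0.0245, n = 6 each). Mccc2, the beta subunit gene (chromosome 13, 99948532 to 100015639, minus strand), was at 49.6 to 59.2 CPM in WT (median 53.4) and 42.6 to 48.3 CPM in KI (median 46.6), without overlap under TMM but with overlap under library totals. Its log2 fold change was -0.22 (SE 0.05, edgeR adjusted p = 0.0260, n = 6 each).

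Both carboxylase genes lost their call without some libraries. For Mccc1 the adjusted p was 0.0526 without WT 2, 0.0582 without WT 6 and 0.0531 without KI 3. For Mccc2 it was 0.0652, 0.0552 and 0.0705 with WT 2, WT 3 and WT 6 left out in turn, and 0.0608 when KI 3 was. The ratio of Mccc1 to Mccc2 counts was 2.13 ± 0.117 in WT and 2.15 ± 0.0864 in KI (SD, n = 6 each), a difference smaller than the spread between libraries.

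Among themselves the members differed several-fold in level. Divided by the length of their exons (GENCODE M21 basic, GRCm38), the WT means were highest for Dld at 165 ± 12.7, Bckdha at 142 ± 22.8 and Ivd at 122 ± 17.3 CPM per kilobase (SD, n = 6). These neighbours in the order overlapped in their WT ranges. Mccc1 at 46.8 ± 3.25 and Bcat2 at 36.2 ± 3.42 CPM per kilobase came next and stood apart from the genes above and below them. Mccc2 (25.4), Bckdhb (24.7), Bckdk (23.2), Dbt (21.2) and Ppm1k (17.5 CPM per kilobase) closed the order, each overlapping its neighbours. In KI the order differed only in that Bckdk (21.5) stood above Bckdhb (20.9). The authors counted reads over whole gene spans, introns included, so division by exon length is approximate. No member overlapped another annotated gene on its own strand, and genes on the opposite strand held at most 1.10% of a member's count (Mccc1).

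WT 1 was among the lowest 2 of the 6 WT libraries for 10 of 10 members, and WT 4 for 7. WT 3 and WT 6 were each among the highest 3 for 10 of 10. The share of counts on the mitochondrial chromosome was lowest in WT 1 (34.0%) and highest in WT 3 (40.4%) and WT 6 (38.6%). Within KI, the libraries among the highest 3 most often were KI 1 (33.9%) and KI 4 (31.6%), each for 8 members, and the part of this share in the members' levels was not tested. The 10 members together held 0.146% to 0.174% of all counts in WT and 0.142% to 0.154% in KI.

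**Figure D4:**
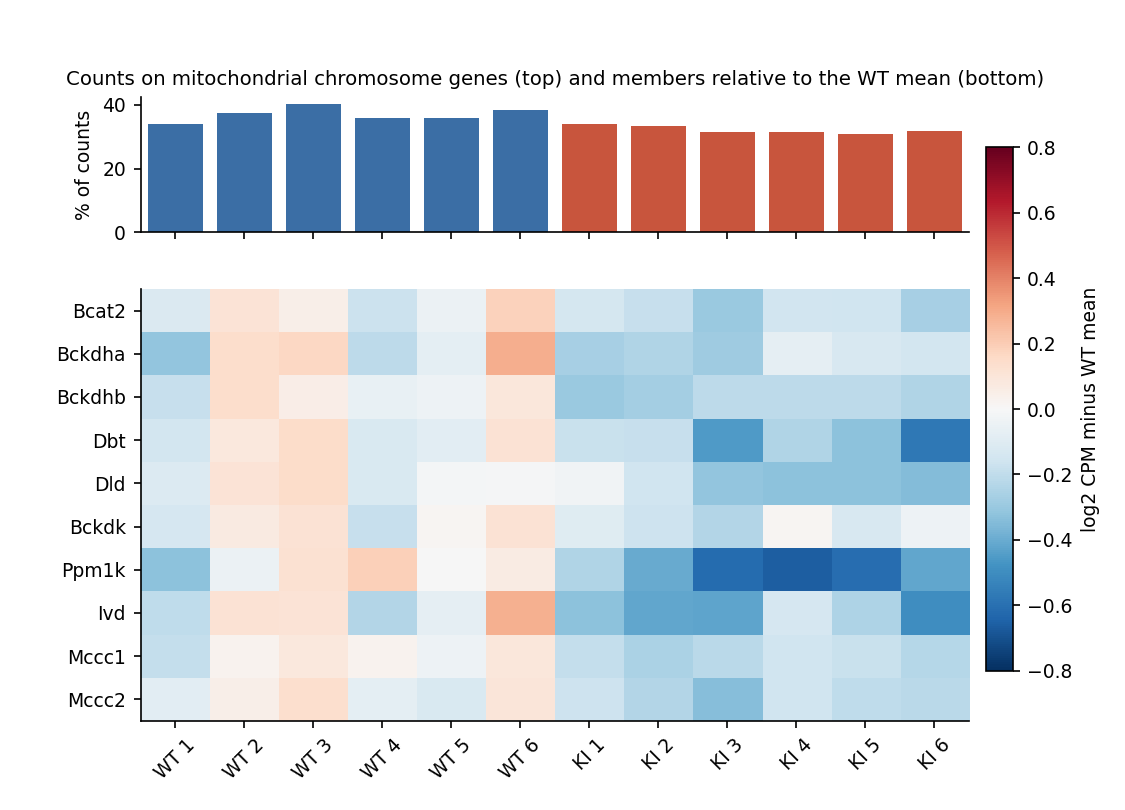
Upper panel, percent of each library's counts on genes of the mitochondrial chromosome, 34.0% to 40.4% in WT (blue) and 30.9% to 33.9% in KI (red). Lower panel, log2 CPM of each member minus its WT mean, where red is above and blue below; WT 1 is blue for all members, and the darkest cells belong to Ppm1k in KI 3 to 5.

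Of 17 other enzymes of the pathway, 7 were lower in KI (against the same 4.34% of all genes) and 0 were higher in edgeR (0 at an unadjusted p under 0.05, 0 by DESeq2 and 0 by voom), with a median log2 fold change of -0.21 and 15 of 17 negative. Those with the smallest adjusted p were Mmut, the methylmalonyl-CoA mutase gene at the end of the propionyl-CoA route (-0.30, SE 0.05, adjusted p = 0.00724), Aldh6a1, the methylmalonate-semialdehyde dehydrogenase gene of the valine arm (-0.41, SE 0.08, adjusted p = 0.00801), and Hadhb (-0.34, SE 0.07, adjusted p = 0.00894) and Hadha (-0.28, SE 0.07, adjusted p = 0.0254). The last pair encodes the mitochondrial trifunctional protein, which is best known from fatty acid oxidation. The others were Echs1, Acat1 and Hibadh, named after their values were seen, with adjusted p of 0.0393, 0.0463 and 0.0489.

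Aldh6a1 ranged from 188 to 255 CPM in WT and from 155 to 189 CPM in KI, where KI 1 alone reached into the WT range. Mmut, at 108 to 127 CPM in WT and 88.0 to 104 CPM in KI, did not overlap with TMM scaling. Under library totals 3 of the 17 were lower, 12 were negative and the median was -0.06. Counts of 4 of the 17 lower came from leaving out any of WT 2, 3, 5 and KI 6, and counts of 3 from leaving out any of WT 6 and KI 3, 4, 5. Leaving out KI 3, 4 and 5 together gave 0 in edgeR. The cytosolic aminotransferase gene Bcat1 was low, with means of 0.913 ± 0.231 CPM in WT and 1.22 ± 0.234 CPM in KI (SD, n = 6 each), and did not pass (log2 fold change 0.41, SE 0.19, edgeR adjusted p = 0.199).

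Of 7 carrier genes, 2 were higher in KI (against 4.46% of all genes) and 0 were lower (edgeR 0, also at an unadjusted p under 0.05, DESeq2 0, voom 0). The pair were the subunits of the plasma membrane exchanger of large neutral amino acids. Slc7a5, its transport subunit, had a mean level of 4.51 ± 0.637 CPM in WT and 6.14 ± 0.432 CPM in KI (SD, n = 6 each). It rose by 0.45 on the log2 scale (SE 0.10, edgeR adjusted p = 0.0174), and every KI library was above every WT library. Its value is uncertain, since Gm42049 overlaps it on the same strand and held a count equal to 15.8% of its own. The heavy chain gene Slc3a2 had 25.1 ± 1.33 CPM in WT and 29.6 ± 2.92 CPM in KI, a log2 fold change of 0.24 (SE 0.07, edgeR adjusted p = 0.0402). Slc25a44, the mitochondrial carrier of branched-chain amino acids, was at 19.7 ± 0.999 CPM in WT and 19.7 ± 1.51 CPM in KI (SD, log2 fold change 0.00, SE 0.06, adjusted p = 0.971). Under library totals 4 carriers were higher, where 19% of all genes were. Slc25a44 was among them at 0.15 (edgeR adjusted p = 0.0411), beside a median of 0.16 over all genes in that fit.

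**Figure D5:**
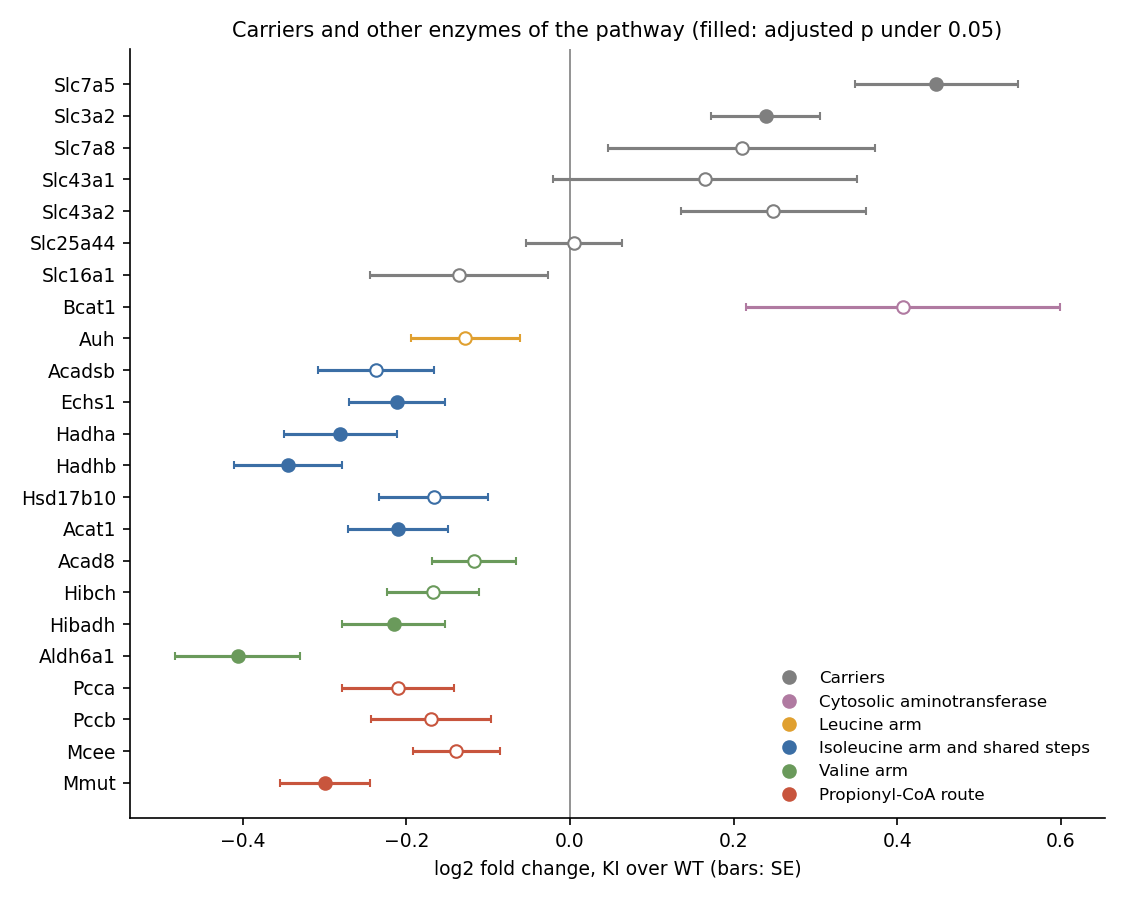
Log2 fold changes of KI over WT with SE (TMM scaling) for carriers and for pathway enzymes other than the members (1 of the 17 is not drawn), coloured by step and filled where the adjusted p is under 0.05. Filled carriers lie right of 0 (Slc7a5 at 0.45, Slc3a2 at 0.24), and filled enzymes lie left of it.

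Of the 7 regulators listed, 1 was lower (against 4.34% of all genes) and 0 were higher (edgeR 0, also at an unadjusted p under 0.05, DESeq2 0, voom 0). Esrra, which encodes an estrogen-related receptor of energy metabolism, was at -0.18 (SE 0.05, adjusted p = 0.0469), but at -0.03 (adjusted p = 0.721) under library totals. Klf15, a Krüppel-like factor known to drive branched-chain genes in heart, ranged from 40.7 to 67.4 CPM in WT and from 40.7 to 66.5 CPM in KI. The groups covered almost the same range, with a log2 fold change of -0.04 (SE 0.14, adjusted p = 0.902). 

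Related enzyme systems give the members a frame. Among 14 genes of the pyruvate, oxoglutarate and oxoadipate dehydrogenase complexes and their kinases and phosphatases, 0 were lower in edgeR. DESeq2 called 3 lower (6.82% of all genes) and voom 6 (8.12%). At an unadjusted p under 0.05, 6 were lower in edgeR, where 4020 of 15606 genes had such a p in either direction. In edgeR 1 of the 14 was higher, against 4.46% of all genes. This was Pdk3 (0.57, SE 0.17, adjusted p = 0.0478), a kinase gene at 1.53 ± 0.313 CPM in WT and 2.26 ± 0.468 CPM in KI (SD, n = 6 each). The median of the 14 was -0.16 with 13 of 14 negative, and -0.02 with 8 of 14 negative under library totals. Among 7 biotin-dependent enzymes and biotin-handling genes, 0 passed in edgeR and 3 were lower at an unadjusted p under 0.05. Pcca and Pccb, both among these 3, are also counted among the 17 other pathway enzymes and are named for that reason. DESeq2 called 1 of the 7 and voom 2 lower, beside the same shares of all genes. Of 16 fatty acid oxidation genes 13 were lower (against 4.34% of all genes), with a median of -0.32. The smallest adjusted p belonged to Etfdh (-0.35), Eci1 (-0.31), Etfb (-0.32) and Etfa (-0.33). Of these, Etfa, Etfb and Etfdh encode the electron-transfer chain that also takes electrons from isovaleryl-CoA dehydrogenase. Of 15 tricarboxylic acid cycle genes 7 were lower, with a median of -0.19 and the smallest adjusted p in Sucla2 (-0.34), Sdhc (-0.22), Fh1 (-0.20) and Sdha (-0.26). Under library totals 9 of the 16 and 1 of the 15 were lower, against 1.22% of all genes. The difference between these lists and the members was not tested.

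Genes whose pattern over the 12 libraries was most like that of Ppm1k, by the smallest root-mean-square difference of standardised log2 CPM, were Ccnh (0.258), Ghr (0.272), Pcmtd1 (0.274), Nadk2 (0.277) and Lysmd4 (0.278 SD). Nadk2 encodes the mitochondrial NAD kinase. Since these genes were picked for a pattern that includes the difference between WT and KI, that difference in them is no separate result. The nearest member was Mccc1, ranked 212 of 11650 genes, and the farthest was Bckdk, ranked 2626.

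Cell type markers were read beside these values. Of 8 cardiomyocyte markers 2 were lower (4.34% of all genes), Tnni3 and Pln, and their summed level was 45599.5 to 51989 CPM in WT and 40999 to 50544 CPM in KI. Of 8 fibroblast markers 4 were higher (4.46% of all genes), with a summed level of 769 to 1006 CPM in WT and 981 to 1786 CPM in KI. Macrophage markers summed to 155 to 253 CPM in WT and 182 to 276 CPM in KI, with 0 of 8 called in edgeR (5 higher at an unadjusted p under 0.05, DESeq2 1, voom 0). Endothelial, mural and erythroid lists had 0 genes called by edgeR, DESeq2 or voom and 0 at an unadjusted p under 0.05. Skeletal muscle markers, of which 4 of 8 were tested, had 0 called in edgeR (1 higher and 1 lower at an unadjusted p under 0.05, DESeq2 0, voom 1 higher). Adipocyte markers, of interest because brown fat uses this pathway, summed to 16.2 to 18.4 CPM in WT and to 18.4 to 19.8 CPM in KI 1 to 5, but to 83.5 CPM in KI 6. Only 1 of the 8 passed the filter, and Retn was near 0 in all libraries. KI 6 also had the highest sums of fibroblast (1786 CPM), mural (1434 CPM) and endothelial (1293 CPM) markers of the 12 libraries, and it was the lowest KI library for 3 members. Without KI 6, 5 members were lower, against 3.49% of all genes. The part of these cell types in the members' differences was not tested.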

How the data were processed

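RNA was extracted from hearts, and 12 libraries, 6 WT and 6 KI, were made with a stranded kit for messenger RNA, per the labels' protocols. The tools named in the submitters' processing notes are cutadapt 2.5, STAR 2.7.2b and featureCounts 1.6.4, with no settings for the first pair. What the authors deposited is a table of expected counts, unnormalized, from featureCounts on a RefSeq annotation of GRCm38.p6, per the file headers. Reads of the reverse strand were counted over whole gene spans, and reads with several alignments or genes were split as fractions, per the file headers. Totals ran from 27867517 to 44559350 counts per library, and those of single members from 1062 to 20005 counts.

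Genes were filtered with filterByExpr of edgeR 4.0.16 (minimum count 10, minimum total 15), scaled by TMM and compared between KI and WT with the quasi-likelihood test in R 4.3.3, on the counts as deposited, which are fractional. P values were adjusted by Benjamini-Hochberg over all 15606 genes tested, at a threshold of 0.05. Errors are SE for fold changes and SD for levels. Log2 CPM used a prior count of 2. Alternatives, also in limma 3.58.1 (voom) and DESeq2 1.42.0 (rounded counts), kept the gene set except where the filter itself or the mitochondrial chromosome was changed. Here voom stands for voom with sample quality weights, in which libraries can count unequally. Figures were drawn with matplotlib 3.10.9.

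The 10 members and all gene lists were chosen with earlier results of these data known. Named genes are all members, Lemd2, Bcat1, Slc25a44, Klf15, up to 4 called genes of each list by adjusted p, and the 5 genes with a mean log2 CPM of at least 1 most like the member with the smallest adjusted p, where log2 CPM was standardised to mean 0 and SD 1. Others are marked as named after their values were seen. The values of 1 gene among the other pathway enzymes are not reported here, though it is included in the counts.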

Additional observations from a re-analysis of the deposited data

Results flagged for a closer look

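Of 88 groups of 6 libraries examined for a value far from the rest (the 10 members, 3 ratios and the carriers, regulators and other pathway enzymes), 2 held one, where chance alone gives about 1 in 20. The ratio of Mccc1 to Mccc2 counts was 2.32 in KI 3, with the other KI libraries at 2.10 to 2.17. Slc7a8, a carrier of neutral amino acids, was at 2.38 CPM in KI 5, below the other KI libraries at 3.64 to 4.25 CPM. No single member's level stood apart in this way.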

How the results depend on the processing

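Over 25 alternatives, the fold changes of the 10 members gave 250 values, of which 194 kept direction and side of the threshold, 51 lost the call, 4 gained it and 1 changed sign, Bckdk with a log2 fold change of 0.043 under library totals. The 7 members lower became 1 under library totals, 0 with a replicate block, 0 without KI 3, 4 and 5 and 3 with only those. Leaving out 1 library gave 2 to 8. The 7 other enzymes lower became 3 under library totals (with 1 higher), 4 with no filter, 12 by voom, 1 with the replicate block and 0 without KI 3, 4 and 5, and 3 to 10 on leaving out 1 library. The 1373 genes called in all became 3149 under library totals, 847 with no filter, 2281 by voom, 432 with the replicate block and 114 without KI 3, 4 and 5, and 741 to 1512 on leaving out 1 library. Fewer libraries or residual degrees of freedom enter the block and subset fits. With only KI 3, 4 and 5 against WT, 1951 genes were called. The cause of these and the other changes was not tested. Libraries that share a number were not treated as paired in the main fit. The deviations of the 6 same-numbered pairs correlated at -0.28 to 0.03. Of the WT libraries, 0 of 6 were closest to the KI library of their number. Such correlations over 6 pairs cannot settle whether the libraries were paired. Library totals without mitochondrial chromosome genes, and leaving out KI 1 and 2, were chosen after seeing the data. Counting error alone was 0.981% to 3.07% of a member's level at its lowest count, the size of the spread of Bckdhb among KI libraries under TMM (2.56%).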
